A study of Rattus norvegicus with 294 samples.

Results

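Ctsk, Acp5, Mmp9, Atp6v1c1 and Gpnmb, whose products serve bone resorption, were followed across laser-captured bone cells of rats given a sclerostin antibody. They are 5 of the 14217 genes that the array names through a probe set of their own, and each was represented by the probe set annotated to that gene alone with the highest mean log2 signal. Only Mmp9 had a second such probe set, whose values correlated with those of the one used at Pearson's r of 0.68 over the osteoblast arrays, 0.60 over the lining cell arrays and 0.68 over the osteocyte arrays. In GRCr8 the genes lie at chr2:185747548-185758512 (Ctsk), chr8:28939984-28946639 (Acp5), chr3:174103474-174111434 (Mmp9), chr7:71719326-71757191 (Atp6v1c1) and chr4:79341128-79362366 (Gpnmb).

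The osteoclast dissolves bone in a sealed space beneath the cell. A V-ATPase proton pump acidifies that space and frees the mineral, after which secreted proteases cut the exposed collagen. Cathepsin K (Ctsk) is the main collagenase of that acid space, tartrate-resistant acid phosphatase (Acp5, TRAP) is the enzyme by which osteoclasts are stained in sections, and gelatinase B (Mmp9) is a metalloproteinase that works at neutral pH. Atp6v1c1 encodes a C subunit of the cytosolic part of the pump. Gpnmb (osteoactivin) is a membrane glycoprotein of late osteoclasts, macrophages and osteoblasts. Sclerostin is a Wnt inhibitor that osteocytes secrete, and antibodies against it are known to raise bone formation and, during treatment, to lower markers of resorption.

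The rats were female Sprague-Dawley animals, ovariectomized at 6 months of age and then left untreated for 8 weeks, controls included. They received weekly subcutaneous vehicle, 3 mg/kg or 50 mg/kg of Scl-Ab, a sclerostin antibody engineered to be less immunogenic in rats, until day 183. Animals were taken on dosing days 8, 29, 85 and 183, and after the last dose on days 197 and 267 (vehicle and 3 mg/kg) and days 237 and 309 (vehicle and 50 mg/kg). Captures of osteoblasts gave 97 arrays, those of lining cells 100 and those of osteocytes 97, all from cryosections of the L3 vertebra, guided for the surface cells by calcein labels given 13 and 3 days before death. There were 60 groups, of which 55 held 5 arrays, 4 held 4 and 1, the osteocytes of 50 mg/kg on day 85, held 3. The labels name no rat, so arrays of different cell types from 1 animal could not be matched and were treated as independent. The replicate numbers used here only name arrays in the order of their deposit. The p-values measure the spread between arrays of a group. The captures enrich for a cell type and do not purify it, no osteoclast was captured as such, and in bulk RNA of this kind fewer cells of a type and less RNA per cell cannot be told apart.

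The osteoclast label was set against a list of osteoclast-selective markers, of which 3 of 8 have a probe set. Calcr, the calcitonin receptor, was above its array's median in 1 of 97 osteoblast, 7 of 100 lining cell and 8 of 97 osteocyte arrays, and Tnfrsf11a, which encodes RANK, in 2, 3 and 17, so both receptors were below it in most arrays. Itgb3, the beta3 integrin, was above the median in every array of the 3 captures. Oscar, Atp6v0d2, Ocstamp, Dcstamp and Siglec15 have no probe set listed to them alone. By the same measure Ctsk, Acp5, Mmp9 and Gpnmb were above the median in every array, and Atp6v1c1 in 92 of 97, 97 of 100 and 95 of 97. The enzymes are therefore described as transcripts of these captures, and the number of osteoclasts was not measured. Of the other labels, the 5 osteocyte markers were higher in osteocyte than in osteoblast captures after normalization, whereas the 8 osteoblast markers were lower in osteoblast than in osteocyte captures and 6 of the 8 were higher in osteoblast than in lining cell captures. In vehicle arrays 63.8% of all genes differed between osteoblast and osteocyte captures and 33.5% between osteoblast and lining cell captures.

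The 250 bases before the transcription start were read for the motifs of transcription factors known to act in osteoclasts. A link of these motifs to the changes described below was not tested. RefSeq's promoter table (assembly GRCr8) held entries for 3 of the 5 genes, with a pair of starts for Acp5. Capitals mark CATGTG or its complement CACATG, the form of E-box that MITF-family factors can bind, and TGANTCA, the AP-1 motif that Fos and Jun proteins bind; both strands were searched. Of the table's 33469 windows of this length, 12.1% held the E-box form and 6.3% the AP-1 motif. Ctsk is shown first, from chr2:185747298-185747547 on the plus strand, with 1 E-box form that begins 151 bases before the start. Gpnmb follows, from chr4:79340878-79341127 on the plus strand, with an AP-1 motif 87 bases and an E-box form 22 bases before the start. The first start of Acp5 is from chr8:28945931-28946180 and the second from chr8:28943930-28944179, both on the minus strand. Both windows lie inside the range of Acp5 given above, so no window before the outermost start of that range was read. The first window held no match, and the second held 1 E-box form 72 bases before its start. These matches describe the letters of the windows and are not binding sites shown by these data.
Ctsk: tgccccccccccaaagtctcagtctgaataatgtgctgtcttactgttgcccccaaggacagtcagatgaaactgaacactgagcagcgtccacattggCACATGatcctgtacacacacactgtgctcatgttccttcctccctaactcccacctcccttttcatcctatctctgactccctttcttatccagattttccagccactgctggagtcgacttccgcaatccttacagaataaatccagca
Gpnmb: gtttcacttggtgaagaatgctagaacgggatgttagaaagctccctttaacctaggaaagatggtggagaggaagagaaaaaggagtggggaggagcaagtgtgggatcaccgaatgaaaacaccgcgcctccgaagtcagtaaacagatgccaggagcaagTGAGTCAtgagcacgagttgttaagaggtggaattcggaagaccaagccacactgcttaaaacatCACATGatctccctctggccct
Acp5, first start: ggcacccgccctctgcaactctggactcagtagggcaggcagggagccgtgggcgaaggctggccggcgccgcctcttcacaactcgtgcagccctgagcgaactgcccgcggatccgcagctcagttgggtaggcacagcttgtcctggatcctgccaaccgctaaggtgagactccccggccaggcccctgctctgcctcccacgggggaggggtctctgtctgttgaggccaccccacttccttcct
Acp5, second start: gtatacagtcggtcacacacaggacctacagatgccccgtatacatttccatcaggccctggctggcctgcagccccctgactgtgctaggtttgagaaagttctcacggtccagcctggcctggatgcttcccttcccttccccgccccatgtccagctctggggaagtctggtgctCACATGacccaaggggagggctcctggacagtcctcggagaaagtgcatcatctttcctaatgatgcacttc

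During dosing, Ctsk and Acp5 fell at 50 mg/kg in osteoblast and osteocyte captures, and none of the 5 genes passed the test at 3 mg/kg in any cell type on a dosing day. Ctsk carried the longest response: it passed on all 4 dosing days in osteoblasts and on days 29, 85 and 183 in osteocytes. Acp5 passed on days 8, 29 and 85 in osteoblasts and on day 85 alone in osteocytes. Levels below are log2 of the deposited array signal, a change is a difference of such means ± its standard error, and a gene passed where the limma adjusted p over all genes tested in that cell type was under 0.05. Both doses were set against the same vehicle arrays of the day.

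Ctsk in osteoblasts on day 8 measured 12.58, 12.73, 12.91, 13.09 and 13.15 in vehicle, 12.01, 12.54, 12.58 and 13.24 at 3 mg/kg, and 11.23, 11.61, 11.79, 11.88 and 12.20 at 50 mg/kg. Every array of 50 mg/kg lay below every vehicle array, while the 3 mg/kg arrays overlapped with vehicle. The change at 50 mg/kg was -1.15 ± 0.29 (adjusted p = 0.00614), which is 0.451 of the vehicle level. On day 29 vehicle measured 11.72, 12.04, 12.10, 12.38 and 12.78, and 50 mg/kg measured 10.75, 10.82, 10.98, 11.33 and 11.45. The groups again did not overlap, and the change was -1.13 ± 0.29 (adjusted p = 0.00212). On day 85 the 4 arrays of 50 mg/kg spread from 9.02 through 9.72 and 10.17 to 11.55, against 10.89, 11.72, 11.88, 11.99 and 12 in vehicle. One array of each group thus lay in the other's range, and the change was the largest of the 4 days, -1.58 ± 0.31 (adjusted p = 0.000489), or 0.334 of vehicle. With the compared groups fitted alone its adjusted p was 0.0607. On day 183 the change was -0.96 ± 0.29 (adjusted p = 0.0344), with 9.78, 9.99, 10.62, 10.84 and 11.25 at 50 mg/kg against 11.05, 11.11, 11.27, 11.76 and 12.10 in vehicle. That call is lost with array weights, with the compared groups fitted alone, or when vehicle replicate 1 or 5 or 50 mg/kg replicate 4 or 5 is left out (adjusted p 0.0615, 0.0654 and up to 0.127).

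In osteocytes Ctsk was tight among vehicle arrays, which lay between 12.54 and 12.86 on day 29, between 12.39 and 12.82 on day 85 and between 12.58 and 12.90 on day 183. At 50 mg/kg it measured 11.88, 12.01, 12.08, 12.19 and 12.46 on day 29, 10.71, 11.13 and 11.31 on day 85, and 11.31, 11.53, 11.98, 12.15 and 12.48 on day 183. No array of 50 mg/kg reached the vehicle range on these 3 days. The changes were -0.61 ± 0.15 (adjusted p = 0.00378), -1.59 ± 0.17 (adjusted p = 5.02e-11) and -0.85 ± 0.15 (adjusted p = 2.06e-05). On day 8 all 5 arrays of 50 mg/kg lay below the vehicle mean, and the change of -0.35 ± 0.15 did not pass (adjusted p = 0.284).

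Acp5 followed Ctsk closely at the start and less so at the end. In osteoblasts on day 8 it measured 10.92, 10.93, 11.41, 11.43 and 11.48 in vehicle and 9.27, 9.92, 10.11, 10.51 and 10.56 at 50 mg/kg, a change of -1.16 ± 0.28 (adjusted p = 0.00413). On day 29 it measured 9.99, 10.12, 10.52, 10.66 and 10.75 in vehicle and 8.69, 9.14, 9.16, 9.16 and 9.73 at 50 mg/kg, a change of -1.23 ± 0.28 (adjusted p = 0.000659). The groups did not overlap on either day. On day 85 the change was -0.94 ± 0.30 (adjusted p = 0.0471), with 3 of 4 arrays below the vehicle mean. The call is lost without the low-value filter (adjusted p = 0.0556), with the mean of probe sets (0.0548), without arrays of outlying signal spread (0.0730), with the compared groups alone (0.166), with array weights (0.0905). It is also lost without any of 7 of its 9 arrays, vehicle replicates 2 to 5 and 50 mg/kg replicates 1 to 3 (up to 0.180). On day 183 it was -0.36 ± 0.28 (adjusted p = 0.525). In osteocytes Acp5 passed on day 85 alone, at 9.46, 9.53 and 9.67 against 10.36, 10.40, 10.49, 10.89 and 11.08 in vehicle (-1.09 ± 0.24, adjusted p = 0.000891; 0.0508 with array weights). On osteocyte day 8 the arrays of both doses lay wholly below vehicle (11.73 to 12.08), at 10.79 to 11.52 for 3 mg/kg and 11.06 to 11.64 for 50 mg/kg, but neither change passed (adjusted p = 0.985 and 0.202).

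**Figure D1:**
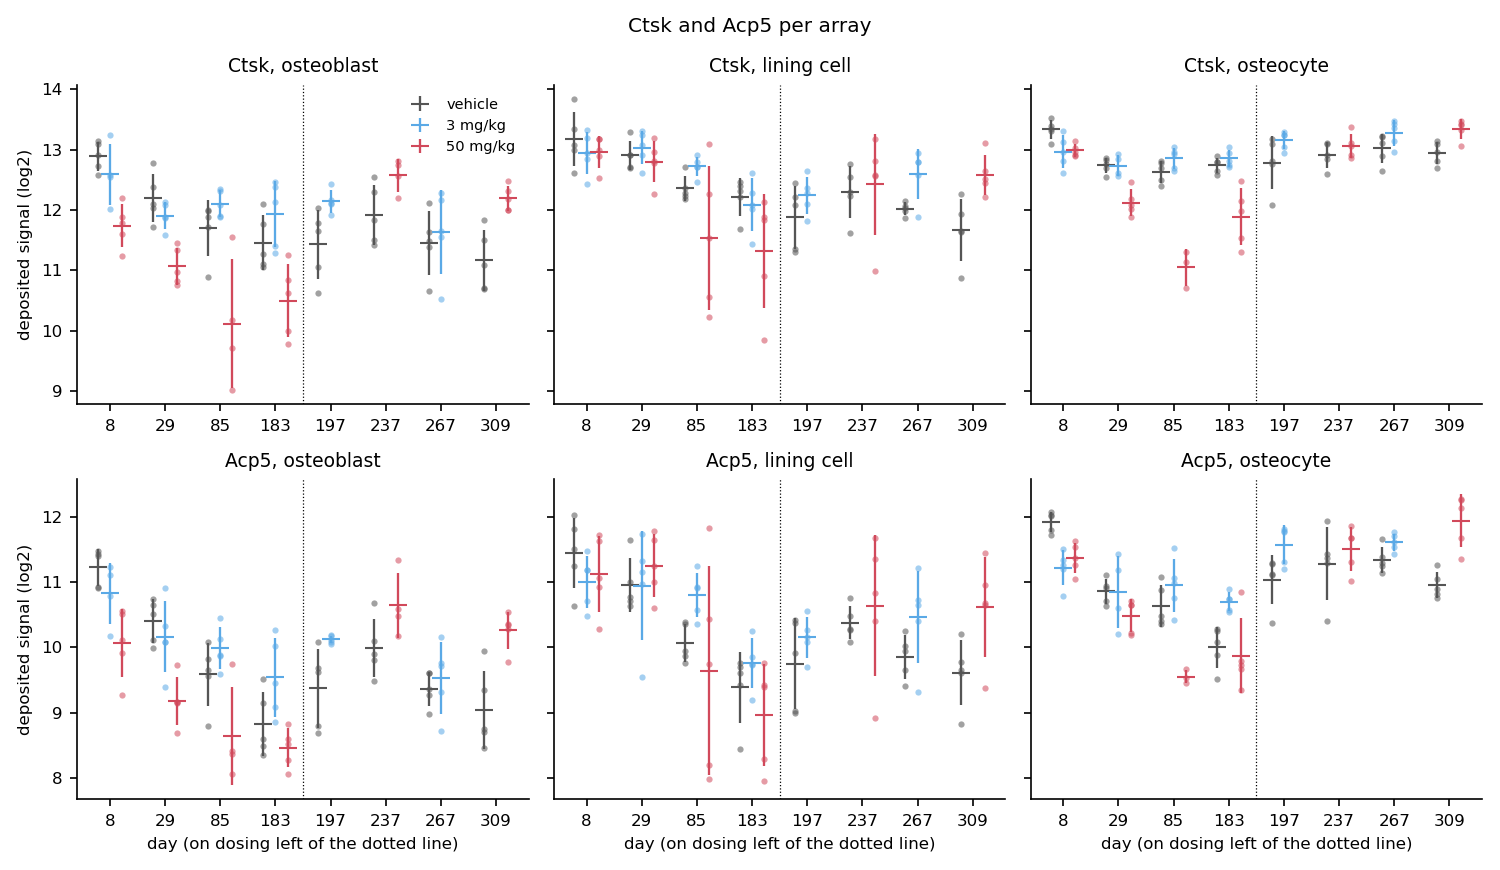
Log2 signal of Ctsk and Acp5 on the vertical axes in every array, by day of euthanasia and dose, for each capture; points are arrays, and crosses are group means with SD. The 50 mg/kg arrays of Ctsk in osteocytes on day 85 sit apart from vehicle of that day, at 10.71 to 11.31 against 12.39 to 12.82. Those of Ctsk in osteoblasts on day 309 lie above all vehicle arrays of day 309.

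Other measurements moved with these falls, and their part in them was not tested. At 50 mg/kg 8.19%, 28.4% and 4.47% of all genes passed on osteoblast days 8, 29 and 85. In osteocytes the shares were 6.50%, 10.1% and 6.38% on days 29, 85 and 183. On osteoblast day 29 the spread of signal within an array (the 90th minus the 50th percentile of log2 values) averaged 3.53 in the vehicle group, 3.41 for the lower dose and 3.16 for the higher; with it as a covariate, the falls of Ctsk (-0.77, adjusted p = 0.132) and Acp5 (-0.75, adjusted p = 0.112) did not pass. In the same comparison 4 of 5 B-lineage markers fell (mean level 6.60, arrays 6.23 to 6.95, in vehicle and 5.98, arrays 5.68 to 6.24, at 50 mg/kg), and on osteoblast day 8, at 50 mg/kg, 7 of 9 erythroid markers rose (8.85, arrays 8.58 to 9.13, against 9.60, arrays 9.04 to 10.2). In osteocytes 2 of 5 B-lineage markers fell on day 85 (5.06, arrays 4.92 to 5.22, against 4.29, arrays 3.75 to 4.77), and 3 of 7 granulocyte markers fell on day 29 (7.69, arrays 7.61 to 7.88, against 6.98, arrays 6.2 to 7.75). Markers of the captured cells themselves rose at 50 mg/kg in several groups where Ctsk fell. In osteoblast captures 5 of 8 osteoblast markers rose and 1 fell on day 29. Their mean level was 9.42 (arrays 8.94 to 9.87) in vehicle and 10.48 (arrays 10.34 to 10.59) at 50 mg/kg. On day 85, 7 of 8 rose, from 8.37 (arrays 7.43 to 9.22) to 9.85 (arrays 9.38 to 10.18). In osteocyte captures 5, 4 and 3 of the 5 osteocyte markers tested rose on days 29, 85 and 183. The mean level of the 3 osteocyte markers kept in all captures went there from 9.13 (arrays 8.36 to 9.50) to 10.78 (arrays 10.32 to 11.18), from 9.10 (arrays 8.71 to 9.97) to 11.08 (arrays 10.95 to 11.21) and from 7.88 (arrays 7.43 to 8.36) to 10.37 (arrays 10.05 to 10.61). None of these osteoblast and osteocyte marker levels overlapped between the groups. On osteoblast days 8 and 183, where Ctsk also fell, the level of the osteoblast markers did overlap. On day 8 it was 10.17 (arrays 9.99 to 10.3) in vehicle and 10.7 (arrays 10.29 to 10.95) at 50 mg/kg. On day 183 it was 8.27 (arrays 7.35 to 8.7) in vehicle and 8.61 (arrays 7.97 to 9.4) at 50 mg/kg. In lining cells that level rose without overlap on day 8, from 8.13 (arrays 7.68 to 8.5) to 9.09 (arrays 8.62 to 9.37). It also did so on day 29, from 7.62 (arrays 7.3 to 8.05) to 9.07 (arrays 8.49 to 9.52). Neither Ctsk (-0.22 and -0.1) nor Acp5 (-0.32 and 0.3) passed in lining cells on these days.

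In lining cells the 50 mg/kg arrays of days 85 and 183 were widely spread. Ctsk measured 10.23, 10.56, 11.53, 12.26 and 13.10 on day 85 against 12.19 to 12.72 in vehicle, and 9.85, 10.90, 11.84, 11.89 and 12.13 on day 183 against 11.69 to 12.47. The 3 lowest arrays of day 85 and the 2 lowest of day 183 lay below every vehicle array, and the others lay inside or above the vehicle range. The changes of -0.83 ± 0.31 (adjusted p = 0.191) and -0.90 ± 0.31 (adjusted p = 0.157) did not pass. Without the array at 13.10 (replicate 3) the change on day 85 was -1.22 and passed (adjusted p = 0.0266). Acp5 on day 85 ran from 7.98 to 11.84 at 50 mg/kg against 9.76 to 10.39 in vehicle, with a change of -0.43 ± 0.41 (adjusted p = 0.704).

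Mmp9, the neutral gelatinase, passed against vehicle at 50 mg/kg on osteocyte day 29 alone. It measured 6.80, 7.07, 7.12, 7.28 and 7.46 there, against 7.35, 7.80, 7.89, 7.97 and 8.18 in vehicle, so that only the lowest vehicle array entered the treated range (-0.69 ± 0.21, adjusted p = 0.0321). The mean of both Mmp9 probe sets gave -0.55 (adjusted p = 0.151), and leaving out vehicle replicate 1, 2 or 5 or 50 mg/kg replicate 2, 3 or 4 gave an adjusted p of up to 0.108. In osteoblasts the estimates at 50 mg/kg went from negative to positive over the course, and none of them passed. The change was -0.44 ± 0.20 on day 8 (adjusted p = 0.181) and -0.50 ± 0.20 on day 29 (adjusted p = 0.0558). It was -0.03 ± 0.22 on day 85 and 0.62 ± 0.20 on day 183 (adjusted p = 0.0621). Under another setting the day 29 change was as small as -0.02. With both doses averaged on day 183, all 10 antibody arrays lay above the vehicle mean of 7.23, and the change of 0.59 ± 0.18 passed (adjusted p = 0.0415). That call is lost with the mean of both probe sets (0.36, adjusted p = 0.249), the spread of signal as a covariate (0.37, 0.243), quantile normalization (0.42, 0.101) and the compared groups alone (0.118). It is also lost without vehicle replicate 2, 3 or 5, 3 mg/kg replicate 4 or 5, or 50 mg/kg replicate 2, 3 or 4 (adjusted p up to 0.257).

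The proton pump subunit Atp6v1c1 fell on osteoblast day 29 at 50 mg/kg, where it measured 4.24, 4.58, 4.86, 4.95 and 5.20 against 5.21, 5.33, 5.93, 5.98 and 5.98 in vehicle. The groups met without overlapping, and the change was -0.92 ± 0.26 (adjusted p = 0.00643). On the other dosing days in osteoblasts its changes at 50 mg/kg lay between 0.02 and 0.13.

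Gpnmb fell in osteoblasts at 50 mg/kg on day 8 (-0.95 ± 0.25, adjusted p = 0.00918) and day 29 (-0.68 ± 0.25, adjusted p = 0.0337). Its day 8 arrays measured 4.67, 5.53, 5.73, 5.89 and 6.02 against 5.80, 6.23, 6.71, 6.92 and 6.96 in vehicle, so that the lowest vehicle array lay among the treated ones. On day 8 the 3 mg/kg arrays overlapped with those of 50 mg/kg (5.46, 5.57, 5.80 and 6.43), and with both doses averaged the change was -0.83 and passed. In osteocytes on day 8 it was -0.89 ± 0.27 at 3 mg/kg (adjusted p = 0.988) and -0.90 ± 0.27 at 50 mg/kg (adjusted p = 0.0894), so neither passed. With the spread of signal as a covariate the day 29 changes of Gpnmb (-0.32, adjusted p = 0.553) and Atp6v1c1 (-0.30, adjusted p = 0.554) in osteoblasts did not pass, nor did that of Gpnmb after quantile normalization (-0.54, adjusted p = 0.113). The Gpnmb calls also ended when 1 array was left out, 50 mg/kg replicate 4 on day 8 (-0.73, adjusted p = 0.0616), and vehicle replicate 1 or 2 or 50 mg/kg replicate 1 or 2 on day 29 (adjusted p up to 0.122).

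**Figure D2:**
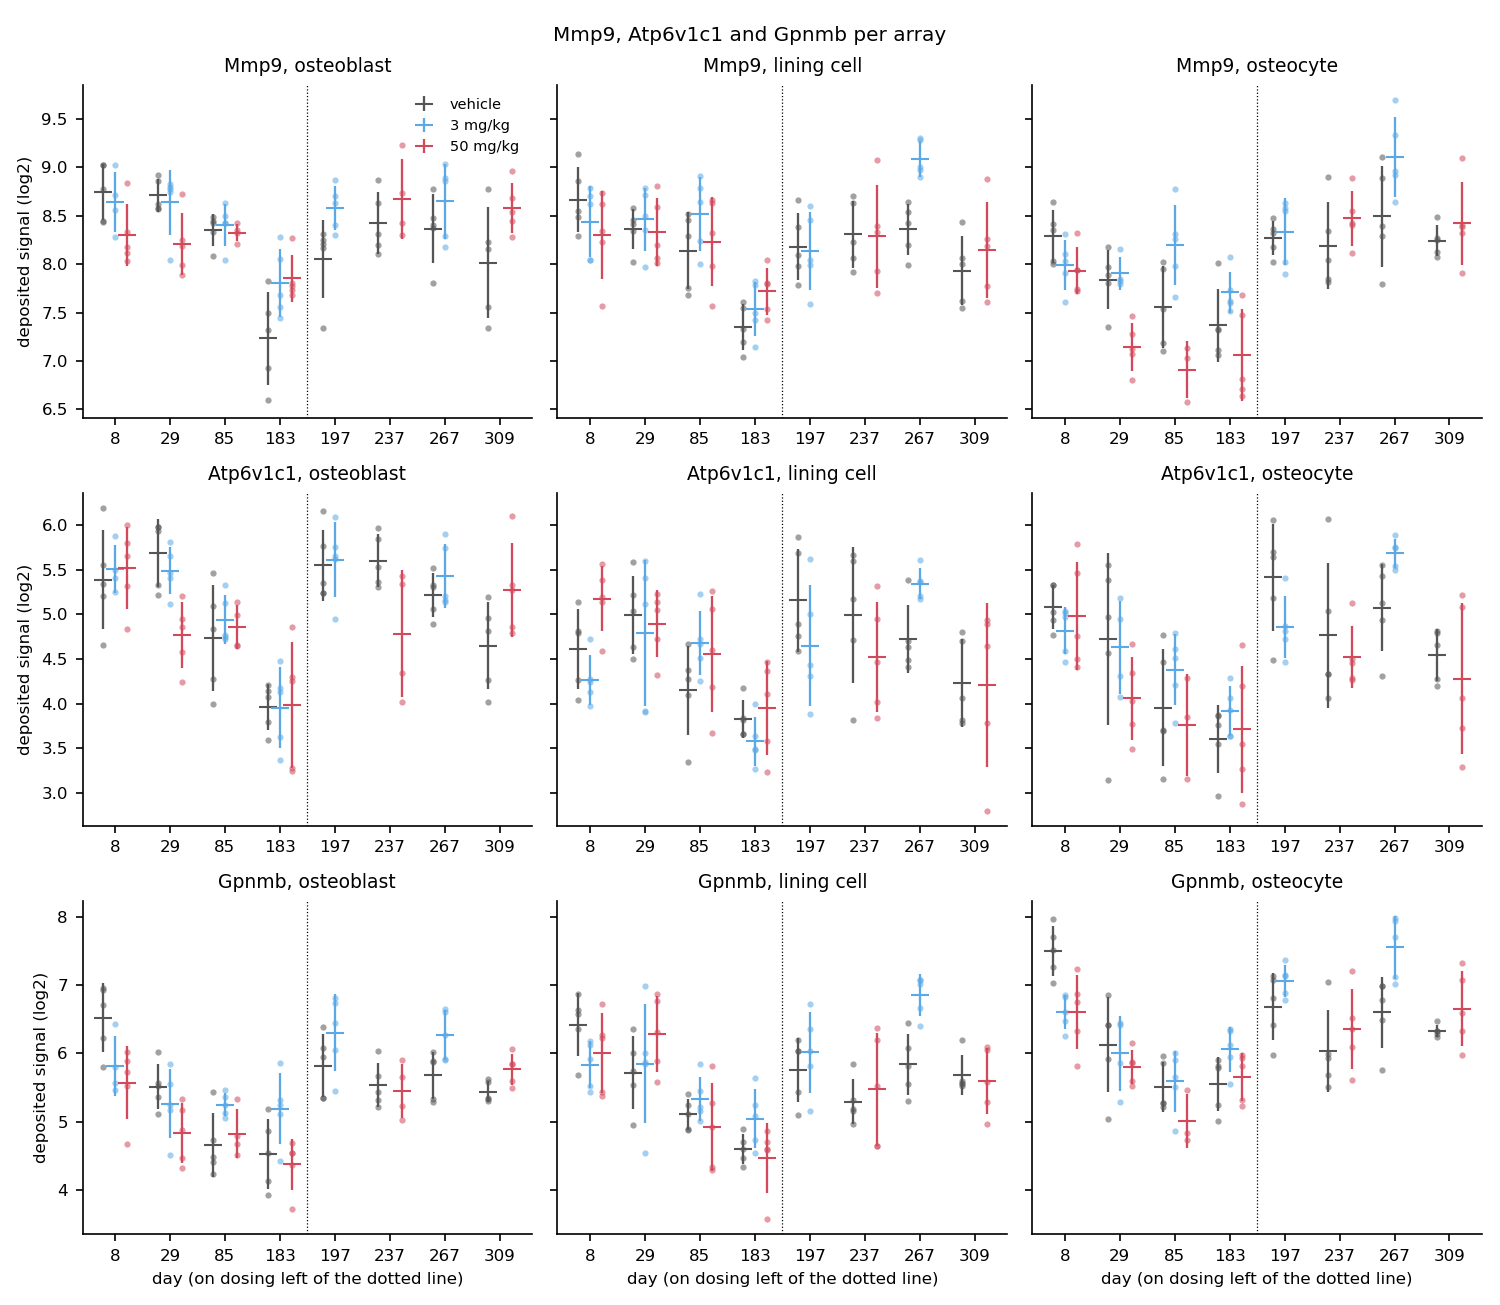
Log2 signal of Mmp9, Atp6v1c1 and Gpnmb in every array, by day and dose, for each capture; points are arrays, and crosses are group means with SD. Vehicle levels differ between days, as for Gpnmb in osteocytes, whose vehicle mean was 7.50 on day 8 and 5.51 on day 85.

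Counted over the 5 genes, 50 mg/kg gave 3 falls on day 8, 4 on day 29, 2 on day 85 and 1 on day 183 in osteoblasts, where 8.19%, 28.4%, 4.47% and 4.43% of all genes passed. Osteocytes gave 0, 2, 2 and 1, all falls, against 0.928%, 6.50%, 10.1% and 6.38% of all genes. Lining cells gave 0 on each day, against 0.621%, 0.207%, 0.983% and 1.0%, with an unadjusted p under 0.05 for 0, 0, 1 and 1 gene. The median change of the 5 genes in osteoblasts was -0.95 on day 8 and -0.92 on day 29, where the median over all genes tested was 0.03 and -0.08. At 3 mg/kg none passed limma's adjusted threshold. The share of all genes was 0%, 0.0701%, 0.0876% and 0.605% in osteoblasts, 0%, 0%, 0.0345% and 0% in lining cells, and 0.00843%, 0%, 1.46% and 0% in osteocytes. Unadjusted p was under 0.05 for 1, 0, 1 and 3 of the 5 genes in osteoblasts, 0 on each day in lining cells, and 3, 0, 1 and 1 in osteocytes.

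With both doses averaged, as the mean antibody effect, 1 gene fell on osteoblast day 8 (Gpnmb), 2 fell on day 29 (Acp5 and Ctsk), none passed on day 85 and 1 rose on day 183 (Mmp9), against 3.64%, 15.0%, 1.76% and 3.29% of all genes. Each of these 4 calls is lost under some alternative, that of Mmp9 as given above. On day 29 Acp5 (-0.74, adjusted p = 0.0286) did not pass with the spread of signal as a covariate (-0.41, 0.410), after quantile normalization (0.0560). It was also lost without vehicle replicate 2, 3 or 4, 3 mg/kg replicate 2 or 50 mg/kg replicate 2 (up to 0.0804). Ctsk (-0.71, adjusted p = 0.0405) did not pass with the covariate (-0.47, 0.380), after quantile normalization (0.0928), or with the mean of probe sets (0.0513). It was also lost without vehicle replicate 2, 3, 4 or 5, 3 mg/kg replicate 2 or 50 mg/kg replicate 1, 2 or 4 (up to 0.143). Gpnmb on day 8 (adjusted p = 0.0205) did not pass with the compared groups alone (0.0849) or without vehicle replicate 1, 3 or 5 or 3 mg/kg replicate 4 (up to 0.112). In osteocytes Ctsk on day 85 was the only call (-0.68 ± 0.14, adjusted p = 0.000472), lost with array weights (adjusted p = 0.0909) and with the compared groups alone (0.0777), against 0.287%, 0.211%, 6.30% and 2.06% on the 4 days. In lining cells none passed, with none under an unadjusted p of 0.05, against 0.310%, 0.0431%, 0.0776% and 0.0517%. Every 3 mg/kg array of Ctsk on osteocyte day 85 lay above the vehicle mean of 12.63 and every 50 mg/kg array below it, so the mean of the doses describes neither.

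**Figure D3:**
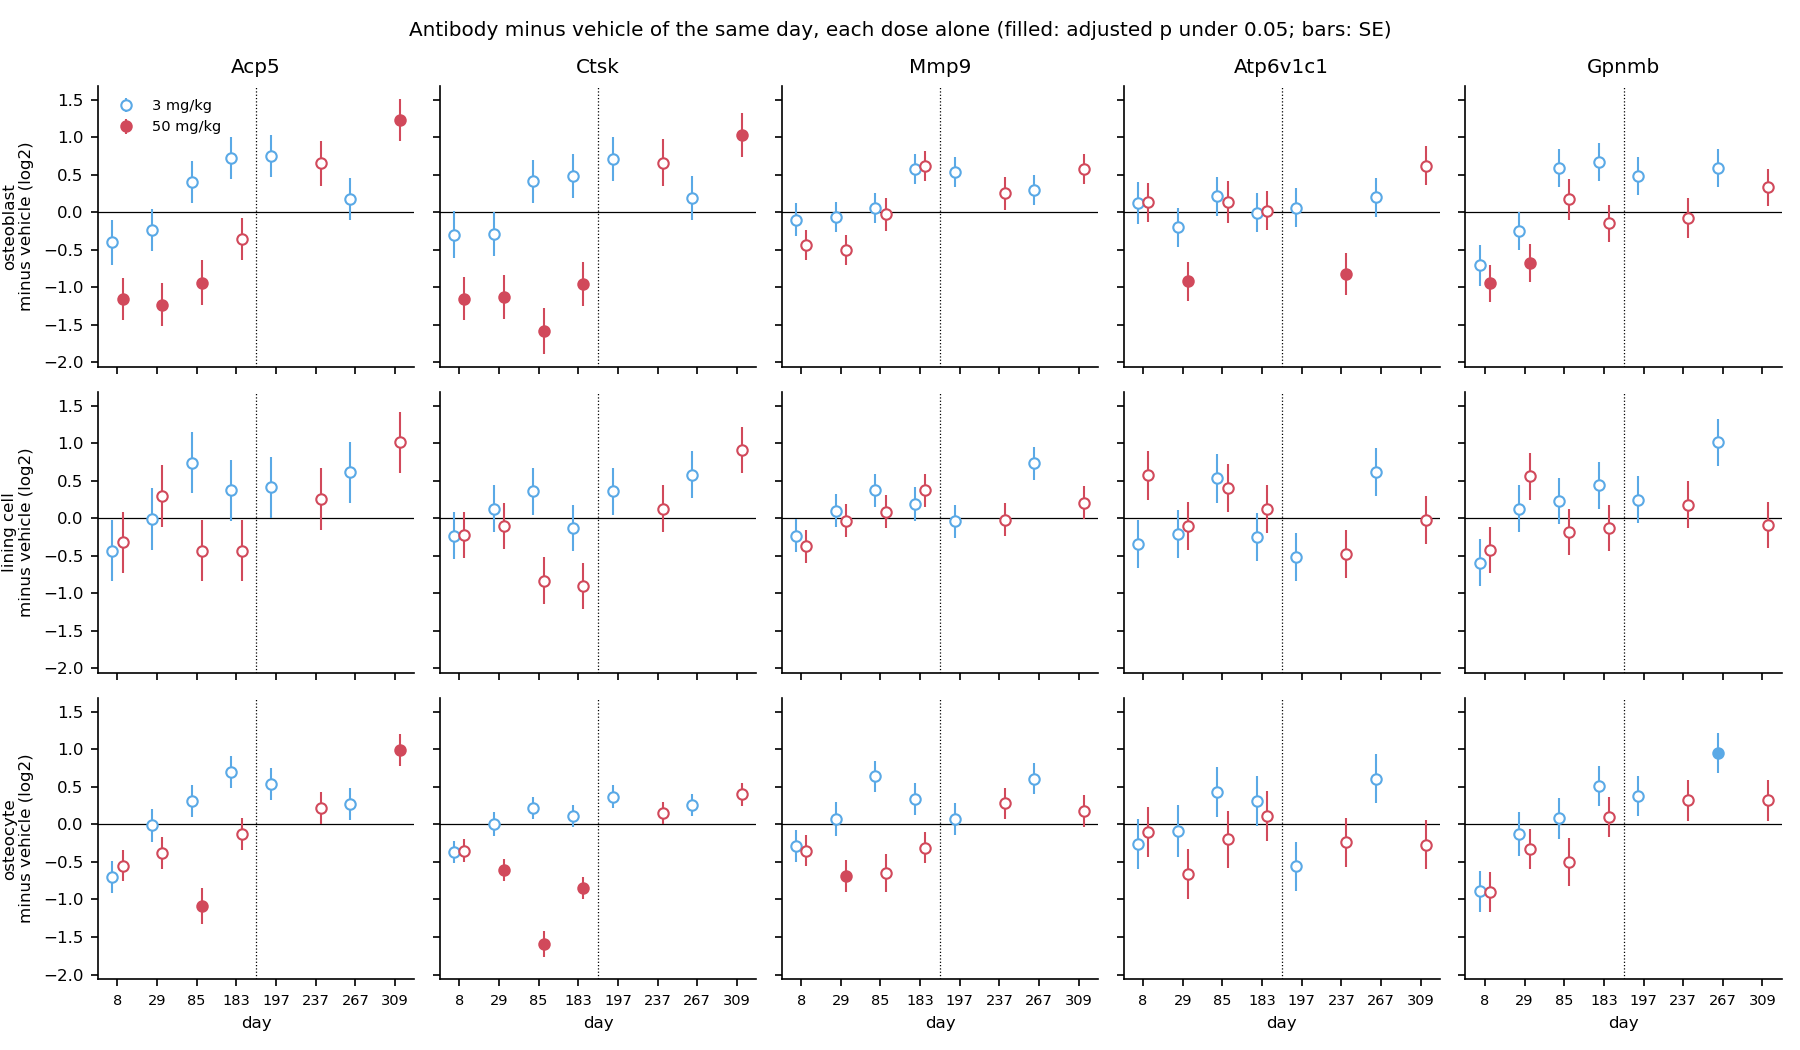
Difference from same-day vehicle in mean log2 signal on the vertical axis, for the 5 genes by day and dose in each capture; bars are the standard error of the fit, and filled points passed the adjusted threshold of 0.05. The 50 mg/kg points of Ctsk lie below 0 on all dosing days in osteoblasts (-1.15, -1.13, -1.58 and -0.96) and above 0 on day 309 (1.03).

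The direct comparison of the doses used no vehicle mean, although vehicle arrays entered the spread that all groups of the fit share. Averaged over the 4 dosing days, 50 mg/kg was lower than 3 mg/kg for Ctsk (-1.28 ± 0.15, adjusted p = 2.42e-09, 0.412 of the 3 mg/kg level), Acp5 (-1.04 ± 0.14, adjusted p = 4.20e-07) and Gpnmb (-0.48 ± 0.13, adjusted p = 0.0236) in osteoblasts, where 2.53% of all genes passed. In osteocytes it was lower for Ctsk (-0.84 ± 0.08, adjusted p = 4.81e-14), Mmp9 (-0.69 ± 0.11, adjusted p = 2.58e-06) and Acp5 (-0.61 ± 0.11, adjusted p = 1.50e-05), against 15.0% of all genes. In lining cells none passed, against 0.647%, and Ctsk came nearest (-0.54 ± 0.15, adjusted p = 0.0676). The signs were negative for all 5 genes in both osteoblasts and osteocytes and for 4 of 5 in lining cells. The Gpnmb call rests on several days: without day 29, 85 or 183 its adjusted p was 0.0790, 0.0780 and 0.207, and without 3 mg/kg replicate 1 of day 8 it was 0.0626. The osteocyte call of Acp5 rests on day 85, without which the difference was -0.35 (adjusted p = 0.0605). In lining cells the Ctsk difference passed without day 8 or day 29, or without replicate 3 of 50 mg/kg on day 85 (-0.64, adjusted p = 0.0105). In the osteocyte comparison 4 of 7 granulocyte, 4 of 9 erythroid and 3 of 5 B-lineage markers were also lower at 50 mg/kg, and 4 of 5 osteocyte markers were higher. In osteoblasts 4 of 8 osteoblast markers were higher. The part of these markers in the comparison was not tested.

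**Figure D4:**
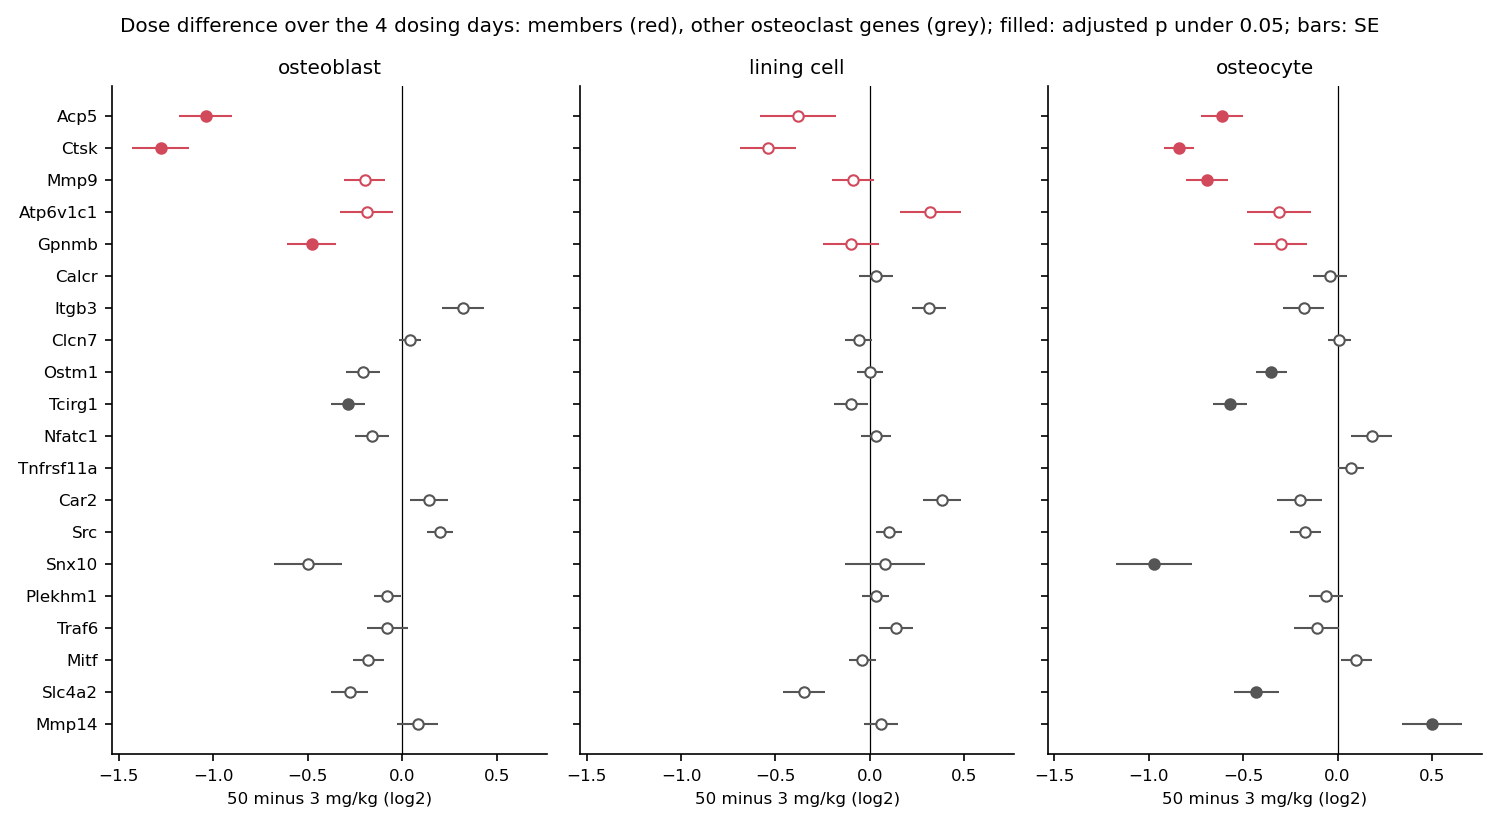
Difference of 50 from 3 mg/kg in mean log2 signal over the dosing days, on the horizontal axis, in each capture, for the 5 genes in red and other osteoclast genes in grey; bars are the standard error of the fit, and filled points passed the adjusted threshold of 0.05. In osteoblasts Ctsk lies at -1.28 and Acp5 at -1.04, and no point of Atp6v1c1 is filled.

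After the last dose of 50 mg/kg, Ctsk and Acp5 in osteoblasts and Acp5 in osteocytes were above vehicle on day 309, the later of the days taken. Acp5 in osteoblasts measured 9.78, 10.28, 10.34, 10.36 and 10.55 against 8.45, 8.70, 8.74, 9.35 and 9.94 in vehicle, a rise of 1.23 ± 0.28 (adjusted p = 0.00325, 2.34-fold) in which only the lowest treated array entered the vehicle range. Ctsk measured 12, 12, 12.18, 12.31 and 12.48 against 10.69, 10.70, 11.09, 11.50 and 11.84, with no overlap (1.03 ± 0.29, adjusted p = 0.0143, 2.04-fold). Acp5 also rose in osteocytes, from 10.76, 10.82, 10.90, 11.06 and 11.27 to 11.36, 11.68, 12.15, 12.27 and 12.29, without overlap (0.99 ± 0.21, adjusted p = 0.000358). The osteocyte change of Ctsk was 0.40 ± 0.15 (adjusted p = 0.0532). In lining cells Acp5 changed by 1.01 ± 0.41 (adjusted p = 0.293) and Ctsk by 0.91 ± 0.31 (adjusted p = 0.175), neither of which passed. The spread of signal on osteoblast day 309 averaged 3.08 in vehicle and 3.41 at 50 mg/kg, and with it as a covariate neither Acp5 (0.80, adjusted p = 0.297) nor Ctsk (0.71, adjusted p = 0.403) passed. Fitted on the compared groups alone, Acp5 had an adjusted p of 0.0517 and Ctsk of 0.0545, and the Ctsk call was lost without vehicle replicate 3 or 4 or 50 mg/kg replicate 3 (up to 0.0733). In osteocytes on day 309, where 16.4% of all genes passed, 6 of 9 erythroid markers were lower (9.21, arrays 9.01 to 9.64, against 8.19, arrays 7.55 to 9.4). There 6 of 8 osteoblast markers were higher (8.96, arrays 8.31 to 9.63, against 9.81, arrays 9.22 to 10.09) and so were 3 of 5 osteocyte markers; their part in the rise was not tested.

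On day 237, the earlier day after 50 mg/kg, neither Ctsk nor Acp5 in osteoblasts passed (0.66 ± 0.31, adjusted p = 0.152, and 0.65 ± 0.30, adjusted p = 0.140). Acp5 had not passed on day 183 either. With the spread of signal as a covariate, its rise on day 237 was 0.94 and passed (adjusted p = 0.0371). Atp6v1c1 was lower there, at 4.02, 4.34, 5.34 and 5.43 against 5.30 to 5.97 in vehicle (-0.82 ± 0.28, adjusted p = 0.0445), in a pair of low arrays and a pair at the vehicle range's lower end. With the spread of signal as a covariate (3.44 in vehicle, 3.22 at 50 mg/kg) it was -0.45 (adjusted p = 0.302). Without the filter, with the mean of probe sets and after quantile normalization its adjusted p was 0.0531, 0.0549 and 0.0757. Leaving out vehicle replicate 1, 2, 4 or 5 or 50 mg/kg replicate 1 or 3 also ended the call (adjusted p up to 0.251). After 3 mg/kg, Gpnmb rose in osteocytes on day 267, from 5.75, 6.49, 6.78, 6.98 and 6.99 to 7.01, 7.12, 7.70, 7.94 and 7.98 without overlap (0.95 ± 0.27, adjusted p = 0.0298). With the covariate the Gpnmb change was 0.65 (adjusted p = 0.197), and after quantile normalization it was 0.75 (adjusted p = 0.132). Without vehicle replicate 4 or 5 or 3 mg/kg replicate 1, 4 or 5 its adjusted p was up to 0.208. In lining cells of that day Gpnmb (1.01 ± 0.31, adjusted p = 0.0812) and Mmp9 (0.73 ± 0.22, adjusted p = 0.0831) did not pass, although every 3 mg/kg array of Mmp9 (8.90 to 9.30) lay above every vehicle array (7.99 to 8.64). Counts on days 197, 267, 237 and 309 were 0, 0, 1 and 2 of 5 in osteoblasts, against 0.0789%, 0%, 10.7% and 10.5% of all genes. They were 0 on each day in lining cells, against 0.0603%, 1.08%, 1.45% and 0.405%, with 0, 2, 0 and 2 under an unadjusted p of 0.05. In osteocytes they were 0, 1, 0 and 1, against 1.11%, 3.63%, 13.2% and 16.4%.

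Whether the response differed between the first and the last dosing day was tested as the antibody effect of day 183 minus that of day 8. None of the 5 passed in any cell type, where 0.561%, 0.0172% and 0.514% of all genes did in osteoblasts, lining cells and osteocytes, and unadjusted p was under 0.05 for 3, 1 and 2 genes. The nearest were Gpnmb (1.09 ± 0.31, adjusted p = 0.0751) and Mmp9 (0.87 ± 0.25, adjusted p = 0.0845) in osteoblasts, and Gpnmb (1.20 ± 0.34, adjusted p = 0.0752) and Acp5 (0.91 ± 0.25, adjusted p = 0.0730) in osteocytes, all less negative or more positive on day 183.

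The vehicle rats set a moving baseline. Acp5 in vehicle osteoblasts fell from 11.23 ± 0.28 (SD, n = 5) on day 8 through 10.41 ± 0.33 on day 29 and 9.59 ± 0.48 on day 85 to 8.82 ± 0.49 on day 183, and was 9.37 ± 0.61, 9.99 ± 0.45, 9.36 ± 0.27 and 9.04 ± 0.60 on days 197, 237, 267 and 309. Its range over the 8 days was 2.42 (adjusted p of the limma F test = 2.15e-12), larger than any change of Acp5 with antibody. Ctsk ranged over 1.73 in osteoblasts (adjusted p = 1.70e-06), from 12.89 ± 0.24 on day 8 to 11.17 ± 0.50 on day 309, over 1.50 in lining cells and over 0.70 in osteocytes, where it was flattest. Gpnmb had its highest vehicle mean on day 8 in each capture (6.52, 6.42 and 7.50) and its lowest on day 183 in osteoblasts (4.53) and lining cells (4.60) and on day 85 in osteocytes (5.51). Atp6v1c1 was lowest on day 183 in all 3 (3.96, 3.83 and 3.60), and so was Mmp9 (7.23, 7.34 and 7.37). All 5 genes passed in each capture, as did 82.2%, 59.9% and 68.6% of all genes. The test has no direction, and the courses of other genes were not compared with theirs. With the spread of signal as a covariate, Atp6v1c1 did not pass in any capture (adjusted p = 0.843, 0.178 and 0.449), nor Mmp9 in osteocytes (0.311). After quantile normalization the range of Mmp9 in osteocytes was 0.47 in place of 1.13 (adjusted p = 0.319). The spread of signal itself went from 3.48 on day 8 to 2.68 on day 183 in vehicle osteoblasts; its part was not tested, and age, time since surgery and any processing by day cannot be told apart here.

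In vehicle rats Ctsk, Acp5 and Gpnmb were highest in osteocyte captures and lowest in osteoblast captures. After quantile normalization of all vehicle arrays together, Acp5 was 9.38 ± 0.88 (SD, n = 40) in osteoblasts, 10.26 ± 0.89 in lining cells and 11.23 ± 0.49 in osteocytes, and Ctsk was 11.48 ± 0.81, 12.33 ± 0.75 and 13.09 ± 0.34. Gpnmb followed the same order (4.98 ± 0.65, 5.62 ± 0.58 and 6.65 ± 0.61). The difference of osteoblasts from osteocytes was -1.84 ± 0.10 for Acp5 (adjusted p = 1.25e-35), -1.61 ± 0.09 for Ctsk (adjusted p = 1.39e-34) and -1.66 ± 0.09 for Gpnmb (adjusted p = 1.78e-36). Mmp9 was 7.84 ± 0.46, 8.24 ± 0.41 and 8.36 ± 0.33, and its difference between lining cells and osteocytes did not pass (-0.12 ± 0.07, 95% interval -0.26 to 0.02, adjusted p = 0.139). Atp6v1c1 was 4.61 ± 0.63, 4.61 ± 0.60 and 4.95 ± 0.77, so that the first pair was level (0.00 ± 0.11, 95% interval -0.21 to 0.21) and osteocytes were higher by 0.34 than either. Of the 5 genes, 4 were lower in osteoblasts than lining cells, 5 lower in osteoblasts than osteocytes and 4 lower in lining cells than osteocytes, and 33.5%, 63.8% and 58.5% of all genes differed. In the values as deposited, Atp6v1c1 was instead higher in osteoblasts than in lining cells (0.51) and osteocytes (0.46), and Mmp9 higher in osteoblasts than in osteocytes (0.21). Mmp9 in osteoblasts minus lining cells was 0.08 and did not pass (adjusted p = 0.370). Neither Gpnmb between osteoblasts and lining cells (-0.09, adjusted p = 0.319) nor Atp6v1c1 between lining cells and osteocytes (-0.06, adjusted p = 0.633) passed. With array medians subtracted, Atp6v1c1 in osteoblasts minus osteocytes was -0.10 (adjusted p = 0.451).

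**Figure D5:**
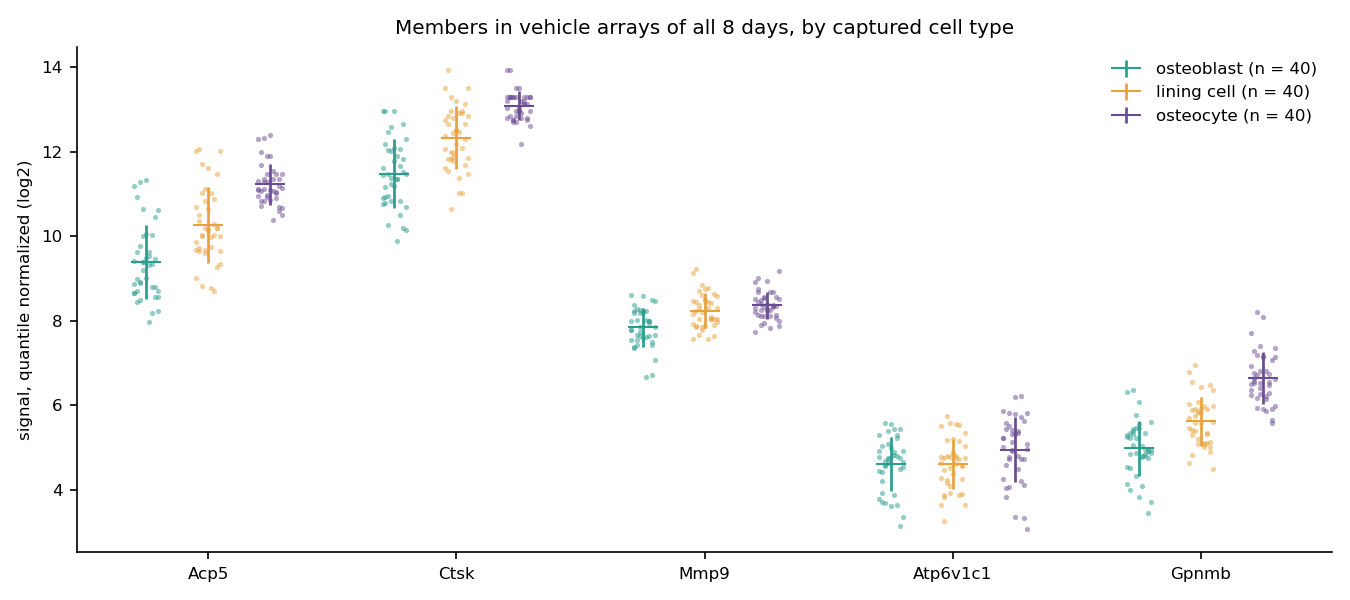
Quantile-normalized log2 signal of the 5 genes in the 40 vehicle arrays of each capture; points are arrays and bars are means with SD. Ctsk, Acp5 and Gpnmb step up from osteoblasts through lining cells to osteocytes (11.48, 12.33 and 13.09 for Ctsk), and Atp6v1c1 is level in the first pair.

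Whether the antibody response differed between captures was tested by interaction. For both doses averaged over the dosing days none of the 5 passed in any pair, against 0%, 3.57% and 2.67% of all genes for osteoblasts minus lining cells, osteoblasts minus osteocytes and lining cells minus osteocytes; 1 gene, Ctsk, had an unadjusted p under 0.05, in the first pair (-0.33 ± 0.16, adjusted p = 0.925). Since the calls above were made at 50 mg/kg, the same test was added at that dose and between doses after the data had been seen, with 0.0160%, 12.1% and 9.65% of all genes at 50 mg/kg and 0.0240%, 6.04% and 7.70% between doses. The larger fall of Ctsk in osteoblasts than in lining cells did not pass (-0.70 ± 0.19, 95% interval -1.07 to -0.32, adjusted p = 0.211), nor did that of Acp5 (-0.71 ± 0.23, adjusted p = 0.345). Mmp9 did: its response at 50 mg/kg was higher in lining cells than in osteocytes by 0.52 ± 0.16 (adjusted p = 0.0166). Over the dosing days that response lay between -0.37 and 0.37 in lining cells and between -0.69 and -0.31 in osteocytes. The difference of Mmp9 between doses was less negative in osteoblasts (0.49 ± 0.16, adjusted p = 0.0444) and lining cells (0.60 ± 0.16, adjusted p = 0.00566) than in osteocytes. These added tests were not repeated with the mean of both Mmp9 probe sets or under the other alternatives.

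Other genes of resorption were read from lists. Of 21 further osteoclast markers, 13 were tested in osteoblasts, 14 in lining cells and 15 in osteocytes, and their directions were mixed. At 50 mg/kg in osteoblasts 3 of 13 fell and 1 rose on day 8, where 8.19% of all genes passed: the pump's osteoclast a3 subunit Tcirg1 (-0.75 ± 0.17), the anion exchanger Slc4a2 (-0.74 ± 0.19) and the transcription factor Mitf (-0.51 ± 0.15) fell, and carbonic anhydrase Car2 rose (0.94). On day 29 Snx10, a sorting nexin needed for resorption, fell by 1.68 on the log2 scale with Mitf (-0.67), 2 of 13 against 28.4% of all genes. In osteocytes Snx10 (-1.68 ± 0.45), Slc4a2 (-0.94 ± 0.25) and Tcirg1 (-0.93 ± 0.20) fell on day 85, 3 of 15 against 10.1% of all genes. Between doses 1 of 13 was lower in osteoblasts (Tcirg1, -0.29), none of 14 passed in lining cells, and in osteocytes 4 of 15 were lower (Snx10, Tcirg1, Slc4a2 and Ostm1) and 1 higher (Mmp14), against 2.53%, 0.647% and 15.0% of all genes. The median change of the list at 50 mg/kg in osteoblasts was -0.09 on day 8 and -0.21 on day 29, against 0.03 and -0.08 over all genes. The beta3 integrin Itgb3 went the other way: it rose at 50 mg/kg on days 85 and 183 in osteoblasts (0.86 ± 0.22 and 1.26 ± 0.21) and in lining cells (0.80 ± 0.19 and 1.17 ± 0.19), and on day 183 its adjusted p was 2.77e-05 and 9.09e-05. Itgb3 is used by osteoclasts to seal to bone and is also a gene of platelets and their precursors.

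Of the other V-ATPase subunits, 7 of 20 tested fell on osteoblast day 29 at 50 mg/kg, among them Atp6v1a (-0.92 ± 0.20), Atp6v1g3 (-0.89 ± 0.26) and Atp6v1h (-0.85 ± 0.24), with a list median of -0.31. In osteocytes 9 of 20 were lower at 50 than at 3 mg/kg, led by Atp6v1b2 (-0.80 ± 0.14) and Atp6v1a (-0.59 ± 0.10), and Atp6v0e2 was higher (0.38). On day 309 in osteoblasts 4 of 20 rose, with Atp6v1d the largest (0.89 ± 0.25). Of the lysosomal genes, 6 of 27 fell on osteoblast day 29, including beta-glucuronidase Gusb (-0.77 ± 0.14) and cathepsin Ctss (-0.60 ± 0.19), and Gaa rose (0.70); on day 309 the count was 6 of 27 risen, including Lamp2 (0.78 ± 0.21) and Gla (0.73 ± 0.17). The shares of all genes in these comparisons were 28.4% on osteoblast day 29, 15.0% between doses in osteocytes and 10.5% on osteoblast day 309. Macrophages share many of these genes: Cd68, their lysosomal marker, fell in osteocytes on day 29 (-0.70 ± 0.20) and day 85 (-1.09 ± 0.23) and rose on day 309 (0.97 ± 0.20), while 2 of 13 macrophage markers fell on day 29, 1 fell and 2 rose on day 85, and 2 rose and 3 fell on day 309, against 6.50%, 10.1% and 16.4% of all genes. The part of macrophages in the enzyme values was not tested.

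Among themselves the 5 genes were not equally alike. Acp5 and Ctsk correlated at r = 0.89 over the 97 osteoblast arrays, 0.91 over the 100 lining cell arrays and 0.75 over the 97 osteocyte arrays, and at 0.81, 0.87 and 0.62 after each group's mean was removed. Ctsk and Atp6v1c1 were the least alike (0.10, 0.09 and 0.22). Over 11127 genes kept in all captures, Ctsk was the nearest neighbour of Acp5 by the mean of the 3 correlations (0.85), followed by the sodium-proton exchanger Slc9b2 (0.75), Arsb (0.73), the matrix gene Ibsp (0.71) and Gusb (0.70). Ctsk had Acp5, Slc9b2 (0.83), the matrix gene Spp1 (0.74), Arsb and Rhou (0.70). Mmp9 was nearest to Anpep and Ibsp, then to the collagenase Mmp13 (0.61). Gpnmb was nearest to Myo1d (0.64) and then to the pump subunits Atp6v1a and Atp6v1b2 among others (0.61 and 0.60), and Atp6v1c1 to the trafficking genes Vps4b (0.73), Stx7 and Vps35 (0.72). These correlations describe arrays that share groups, days and capture, and they carry no test.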

How the data were processed

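The deposited values are array intensity per probe set on a linear scale, from 2.94 to 28282, as the authors deposited them; the submitters' processing notes name RMA, affy 1.38.1, R 3.0.1 and Affymetrix Expression Console, with no role given for each. The log2 of each value was taken. Of 31042 probe sets, 20826 are listed with 1 gene, 436 with several and 9780 with none, and the probe set with the highest mean stood for each of 14217 genes. Genes above the array's median in at least 5 arrays of the fit were tested: 11412 in osteoblasts, 11600 in lining cells and 11859 in osteocytes.

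limma 3.58.1 in R 4.3.3 fitted 1 mean per treatment and day in each cell type, with Benjamini-Hochberg adjustment over all genes and a threshold of 0.05; the script was tested on simulated data. The cell types differ in their medians (log2 3.43 to 3.72 in osteoblasts, 3.14 to 3.36 in lining cells and 2.89 to 3.12 in osteocytes), so they were compared after quantile normalization with day in the model. The number of arrays per group, 3 to 5, limits the precision.

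The 5 genes and the gene lists (osteoclast-selective and other osteoclast markers, V-ATPase subunits, lysosomal genes, matrix metalloproteinases, osteoclast regulators, and macrophage, granulocyte, erythroid, B-lineage, osteoblast and osteocyte markers) were chosen with earlier results of these data known. The rule for names was all 5 genes, up to 4 called genes with the largest change per list and comparison, the defining markers, and the 5 nearest neighbours of each gene. Alternatives were no filter, quantile normalization, the mean of probe sets, array weights, the compared groups alone, the spread of signal as a covariate, and leaving out outlying arrays, single arrays or days; each dose alone and the dose-specific interactions were chosen after seeing the data. No array was dropped from the results.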

Additional observations from a re-analysis of the deposited data

Results flagged for a closer look

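Single arrays stood apart from the rest of their group by Dixon's criterion in 11 of 295 combinations of gene and group, where chance gives about 1 in 20. For Acp5 these were lining cell vehicle day 183 replicate 4 (8.44, others 9.43 to 9.76) and osteocyte vehicle day 197 replicate 4 (10.38, others 11.12 to 11.30). For Ctsk they were osteoblast vehicle day 85 replicate 1 (10.89, others 11.72 to 12) and lining cell 50 mg/kg day 237 replicate 4 (10.99, others 12.56 to 13.18). Mmp9 had 4: osteoblast 3 mg/kg day 29 replicate 2 (8.04, others 8.75 to 8.83), osteocyte vehicle day 183 replicate 1 (8.01, others 7.06 to 7.33), osteoblast 50 mg/kg day 183 replicate 3 (8.27, others 7.68 to 7.81) and osteoblast vehicle day 197 replicate 4 (7.34, others 8.17 to 8.31). Atp6v1c1 had osteocyte 50 mg/kg day 237 replicate 5 (5.12, others 4.26 to 4.50). Gpnmb had lining cell 50 mg/kg day 183 replicate 1 (3.58, others 4.59 to 4.86) and lining cell vehicle day 309 replicate 2 (6.20, others 5.52 to 5.60).

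The response of Mmp9 differed between captures by an interaction test added after seeing the data. At 50 mg/kg it was higher in lining cells than in osteocytes by 0.52 (adjusted p = 0.0166). The difference of Mmp9 between doses was less negative than in osteocytes by 0.49 in osteoblasts (adjusted p = 0.0444) and by 0.60 in lining cells (adjusted p = 0.00566). These tests were not repeated with the mean of both Mmp9 probe sets or under the other alternatives.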

How the results depend on the processing

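Over 2400 values of the 5 genes under another setting, 49 lost and 60 gained a call. Among values that passed in either fit, 4 were counted as turned in sign. Those 4 are capture differences in the values as deposited: Atp6v1c1 in osteoblasts minus lining cells (0.51) and minus osteocytes (0.46), and Mmp9 likewise (0.076 and 0.21). The first of them was 0.00 in the main fit. Some values that passed in neither fit changed sign as well and are not in that count. With both doses averaged on osteoblast day 29, Mmp9 was -0.29 in the main fit and as high as 0.03 under another setting. Counts of calls that moved by over 1.5 times follow, with the main count first. For both doses averaged, the 4 osteoblast calls became 0 at 3 mg/kg alone, 10 at 50 mg/kg alone and 2 with the mean of probe sets. The 1 osteocyte call, Ctsk on day 85, was itself lost with array weights and with the compared groups alone, and the count became 0 at 3 mg/kg, 5 at 50 mg/kg, 4 with array weights, 2 with the compared groups alone and 3 with quantile normalization. At 50 mg/kg alone the 0 in lining cells became 1 with array weights and 1 with quantile normalization. Between doses the 0 in lining cells became 1 with quantile normalization, with the signal covariate, without day 8 and without day 29. After dosing, the 3 in osteoblasts became 1 with the covariate and 1 with the compared groups alone, the 0 in lining cells became 4 with array weights and 3 with the compared groups alone, and the 2 in osteocytes became 4 with array weights. For day 183 minus day 8 the 0 in osteoblasts became 2 with quantile normalization and 2 with array weights, and the 0 in osteocytes became 2 with array weights and 2 with the compared groups alone. The 5 of the vehicle course in osteocytes became 3 with the covariate. Between captures the 0 of 15 became 1 at 50 mg/kg and 2 between doses. The cause was not tested.

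Leaving out each array in turn gave 62 lost and 34 gained calls of 4265, and no value that passed in either fit turned in sign. Values that passed in neither did turn. With both doses averaged on osteoblast day 8, Atp6v1c1 was 0.12 in the main fit and as low as -0.06 without 1 array. Counts ranged from 2 to 6 (osteoblasts) and 1 to 2 (osteocytes) for both doses averaged, 9 to 11, 0 to 1 and 4 to 6 (osteoblasts, lining cells and osteocytes) at 50 mg/kg, and 0 to 1 (osteocytes) at 3 mg/kg. Between doses they were 2 to 3 (osteoblasts) and 0 to 1 (lining cells), after dosing 2 to 4 (osteoblasts) and 1 to 3 (osteocytes), and for day 183 minus day 8 0 to 2 (osteoblasts) and 0 to 1 (osteocytes). No paired analysis was possible because the labels give neither a rat nor a replicate number, and the numbers used here follow the order of deposit, which pairs nothing.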

Other observations

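Matrix metalloproteinases other than Mmp9 went both ways at 50 mg/kg. Mmp13, the collagenase of hypertrophic chondrocytes and osteoblasts, fell on day 8 in osteoblasts (-1.42 ± 0.26, adjusted p = 0.000185), lining cells (-1.21 ± 0.29, adjusted p = 0.0240) and osteocytes (-1.09 ± 0.25, adjusted p = 0.0136). Mmp13 also fell on osteoblast day 29 (-1.01 ± 0.26) and osteocyte day 85 (-1.43 ± 0.29), and rose on osteoblast day 309 (1.13 ± 0.26, adjusted p = 0.00354). Timp3, an inhibitor of these proteases, rose in osteoblasts on days 29, 85 and 183 (0.80, 1.64 and 0.91) and in osteocytes on the same days (1.29, 1.99 and 1.44). Of the 10 genes of the list tested, 1 fell and 1 rose on osteoblast day 8 and 1 fell and 3 rose on day 29, where 8.19% and 28.4% of all genes passed.

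Few regulators of osteoclast formation had a level that could be tested, 5 of 14 in osteoblasts, 7 in lining cells and 8 in osteocytes. Csf1, the macrophage growth factor that osteoclast precursors need, rose on osteoblast day 29 at 50 mg/kg (0.54 ± 0.14, adjusted p = 0.00228), the only 1 of 5 tested, where 28.4% of all genes passed. In osteocytes 2 of 8 were higher at 50 than at 3 mg/kg: Tnfrsf11b, which encodes the RANKL decoy osteoprotegerin (0.32 ± 0.10, adjusted p = 0.0160), and Il34, a second ligand of the Csf1 receptor (0.22 ± 0.08, adjusted p = 0.0345), where 15.0% of all genes passed. In lining cells none of 7 passed limma's adjusted threshold in that comparison.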
